A study of Mus musculus with 9 samples.

Results

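Adipokines are hormones and hormone-like proteins released largely by fat tissue, and 9 genes of these systems were examined in the mouse ovary: Lep (leptin) and its receptor Lepr, Adipoq (adiponectin) and its receptors Adipor1 and Adipor2, Retn (resistin), Nampt (visfatin), and Rarres2 (chemerin) and its receptor Cmklr1. They were chosen by function with earlier group values of these data known, and a symbol with several rows was to be taken by its highest mean level. Each of the 9 had exactly 1 of the 33450 rows of the gene table. The values below are therefore a description, and no test was made on them. The mice were of the inbred strain C57BL/6J, and their ovaries were taken whole at 15 weeks of age. Control mice (3 animals) ate a standard chow with 16% fat. Another 6 animals ate a diet with 60% fat for 10 weeks and were grouped by outcome, into 3 that stayed lean (HFLN) and 3 that became obese (HFOB). Lean or obese status was thus a response of the animal and not an assigned treatment. The series asks how high-fat feeding, with or without obesity, goes with ovarian gene expression.

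Leptin is made by fat cells in proportion to their fat content and acts through a cytokine receptor that recruits the kinase JAK2 and the transcription factor STAT3. Adiponectin is a collagen-like hormone of fat cells whose receptors, AdipoR1 and AdipoR2, are membrane proteins linked to AMP-activated kinase and PPARα activity. Resistin is a small secreted protein of mouse fat cells, visfatin is the intracellular enzyme NAMPT that also occurs outside cells, and chemerin is a precursor that proteases activate into an attractant for cells with the receptor CMKLR1. Receptors for leptin, adiponectin and chemerin have been described on ovarian cells, where these hormones bear on steroid output and ovulation.

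The sequence before the transcription start is shown for Lep and for Adipoq. Of the 9 genes, these stood highest in HFOB relative to control and relative to HFLN. The bases are from RefSeq (build GRCm38.p6, the assembly behind mm10), on the plus strand for both genes, and capitals mark matches to TTGCGCAA, a site of the C/EBP factors, and to GGGCGG, the GC box.
Lep, chr6:29059971-29060220: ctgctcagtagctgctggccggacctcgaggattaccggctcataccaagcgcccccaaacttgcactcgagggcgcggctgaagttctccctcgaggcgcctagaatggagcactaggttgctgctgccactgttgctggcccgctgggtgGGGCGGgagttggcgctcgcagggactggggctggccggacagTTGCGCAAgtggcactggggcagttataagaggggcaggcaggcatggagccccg
Adipoq, chr16:23146286-23146535: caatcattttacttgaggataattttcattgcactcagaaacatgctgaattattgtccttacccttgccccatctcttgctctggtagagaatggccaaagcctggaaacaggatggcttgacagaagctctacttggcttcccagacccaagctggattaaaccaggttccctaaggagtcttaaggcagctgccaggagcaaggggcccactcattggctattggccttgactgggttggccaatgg
The window searched for motifs ran from 250 bases before the start to 50 after it, on both strands. TTGCGCAA reads the same on both strands. It lay 55 to 48 bases before the start of Lep and occurred in 60 of 32851 such windows (0.183%). RefSeq windows were at hand for 8 of the 9 genes, and none of the other 7 held TTGCGCAA. The GC box lay 98 to 93 bases before the start of Lep and occurred in 35.7% of all windows. In the window of Adipoq the searched motifs had no match: TTGCGCAA, its looser form TTGCNNAA (which includes it and occurred in 10.8% of windows), the TATA box TATAAA (13.6%), GGGCGG, the E-box CACGTG (7.15%) and the nuclear receptor core site AGGTCA (16.3%). A match is a run of letters and was not tested as a binding site.

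Levels are FPKM as the authors deposited them, with 1 value, a lower and an upper bound per group of 3 animals. FPKM relate fragment counts to transcript length and library size, and how the libraries were scaled to each other is not stated. Rows without a gene symbol held 42.2%, 27.6% and 36.8% of the summed FPKM in control, HFLN and HFOB. Single animals were not analysed here, so no SD and no p-value is given. The bounds, written as an interval, are the error, and how many animals carry a difference is unknown. In whole tissue, fewer cells of a type and less RNA per cell cannot be told apart. The tissue label was checked with markers. In control, HFLN and HFOB the granulosa hormone Amh stood at 181, 176 and 187 FPKM, and the oocyte factor Gdf9 at 51.4, 50.7 and 56.3. The steroid enzyme gene Cyp19a1 of granulosa cells was highest in control, at 20.7, 14.5 and 12.2 FPKM. So was Cyp17a1 of theca cells, at 346, 183 and 191, and the intervals overlapped in both genes. Star, counted here among the theca markers, was highest in HFLN, at 147, 230 and 169, with overlapping intervals. Which cells its RNA came from was not tested. By the call rule given below, none of the 7 granulosa and 4 theca markers was called in any comparison. Of all rows tested 0.195% to 0.366% were, so 0 is the usual count for a short list and nothing is read from it. Markers of ciliated oviduct epithelium were also present, and their 6 values summed to 78.3, 126 and 54.4 FPKM. All 6 were highest in HFLN, and the intervals of the groups overlapped in each. On the log2(FPKM + 1) scale their median log2 fold was 0.68 in HFLN against control. It was -0.37 in HFOB against control and -1.15 in HFOB against HFLN. None of the 6 was called, and nothing is read from that count either. The part of ciliated epithelium in the values below was not tested.

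Lep was the 1 of the 9 genes that met the call rule, and it did so in HFOB against either other group. The rule asks for a fold of at least 2 on the log2(FPKM + 1) scale and for intervals that do not overlap, and it is applied to rows that reach 1 FPKM in any group. In HFLN against control 0 of 9 were called, where 0.283% of all 16932 rows tested were. In HFOB against control 1 of 9 was called, Lep, against 0.366% of 16929 rows in either direction and 0.0945% in the higher direction. In HFOB against HFLN 1 of 9 was called, again Lep, against 0.195% of 16931 rows and 0.112% in the higher direction. Lep was chosen with its value known, so nothing is read from its place among these shares. It also passed the filter on low values only through HFOB, so at this level it had to differ to be considered at all. The nearest gene outside the threshold was Adipoq, at log2 folds of 0.51 and 0.80 in the comparisons of HFOB with control and with HFLN, against 1.34 and 1.22 for Lep.

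**Figure D1:**
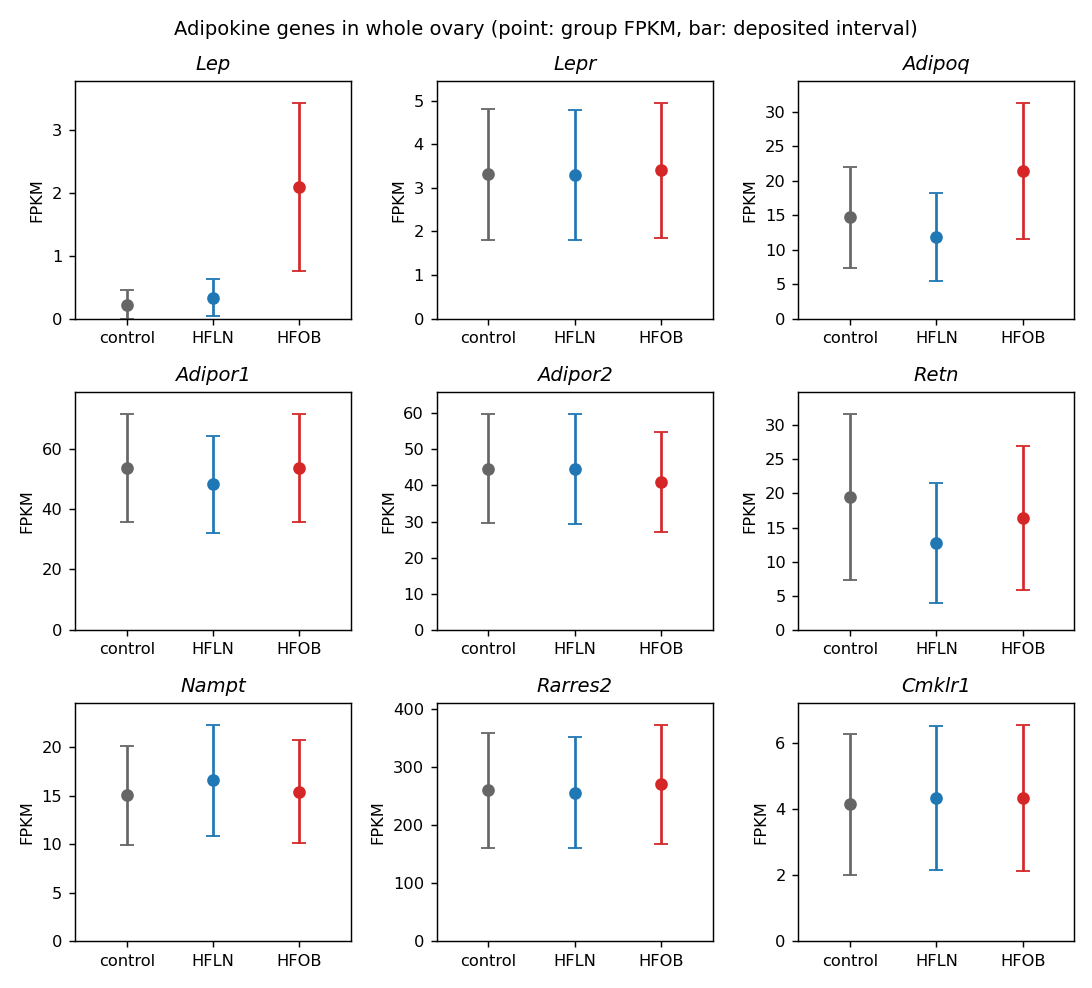
FPKM (vertical axes, linear, starting at 0) of the 9 adipokine genes in control, HFLN and HFOB ovaries. Points are the deposited group values and bars the deposited intervals. The HFOB interval of Lep (0.759 to 3.44) lies above those of the other groups, and in each of the other 8 genes the intervals of all groups overlap.

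Counted by direction alone, 3 of the 9 genes were higher in HFLN than in control, 6 were higher in HFOB than in control and 7 were higher in HFOB than in HFLN. Of all rows tested, 50.1%, 47.0% and 47.7% were higher in these comparisons. The median log2 folds of the 9 genes were -0.01, 0.04 and 0.08, and those of all rows tested 0.00, -0.01 and -0.01. When FPKM were rescaled to an equal sum over protein-coding rows, the median of all rows moved to 0.19, 0.07 and -0.12, and 7, 7 and 4 of the 9 genes were higher. Of all rows tested, 83.5%, 69.1% and 21.5% were then higher. List counts given below for the equal-sum scaling are to be read beside these shares. The small differences of Lepr, Adipor1, Adipor2, Rarres2 and Cmklr1 change sign in 1 or more comparisons with that scaling, so no direction is given for them. The signs of Lep, Adipoq, Retn and Nampt were kept under every scaling tried. Both comparisons with control share the control values.

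**Figure D2:**
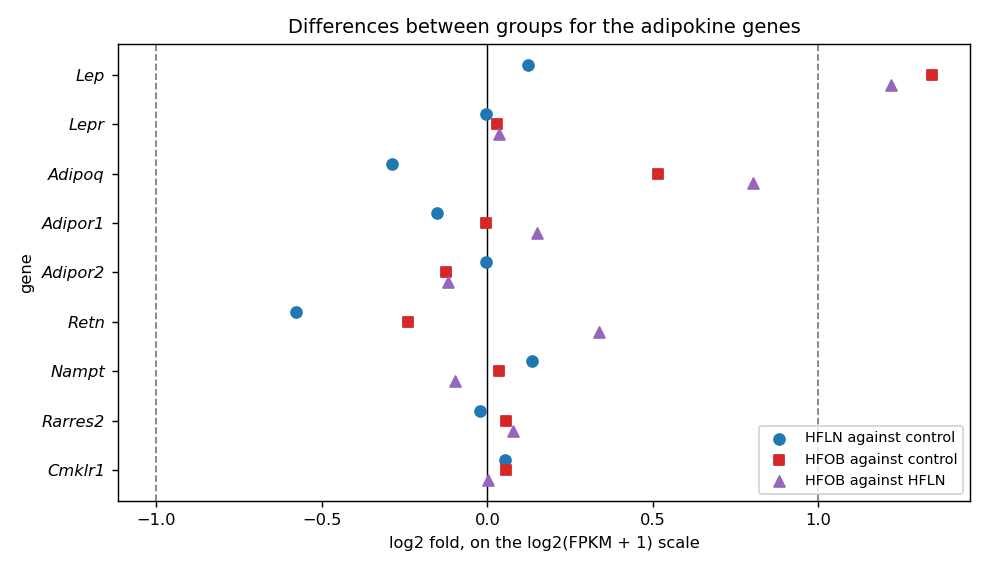
Log2 folds on the log2(FPKM + 1) scale (horizontal axis) of the 9 genes in HFLN against control (circles), HFOB against control (squares) and HFOB against HFLN (triangles), with dashed lines at the threshold of 1 in either direction. Lep lies beyond the line at 1.34 and 1.22 in both comparisons of HFOB, Adipoq is next at 0.51 and 0.80, and no other point lies farther from 0 than Retn at -0.58.

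Lep (chromosome 6, 29060221 to 29073876, plus strand) encodes leptin, the hormone that reports fat stores. Control ovaries held 0.223 FPKM (interval 0 to 0.455), HFLN ovaries 0.332 (0.0392 to 0.625) and HFOB ovaries 2.101 (0.759 to 3.44). Control and HFLN overlapped, and HFOB lay above both without overlap. The plain ratio of FPKM was 9.42 for HFOB to control and 6.33 for HFOB to HFLN. Of the rows tested, 36 (0.213%) had as high a log2 fold in HFOB against control and 81 (0.478%) in HFOB against HFLN. The log2 fold of so low a gene depends on the pseudocount: with 0.1 FPKM added in place of 1, it was 2.77 against control and 2.35 against HFLN. The interval extended 104% of the value to either side in control (where its lower bound was held at 0), 88.2% in HFLN and 63.9% in HFOB. In the other 8 genes it extended 33.2% to 69.4%. Even in HFOB, Lep held place 13917 among the 33450 rows from the highest FPKM down.

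Lepr (chromosome 4, 101717137 to 101815352, plus strand) encodes the leptin receptor. Its RNA was at 3.31 FPKM (1.81 to 4.81) in control ovaries, 3.30 (1.81 to 4.78) in HFLN ovaries and 3.40 (1.84 to 4.95) in HFOB ovaries. The highest group exceeded the lowest by a ratio of 1.03, well inside the intervals. The row joins 3 RefSeq transcripts, so the long signalling form of the receptor and its short forms are not separated. Per length, the RNA of the receptor exceeded that of its hormone by a ratio of 14.9 in control, 9.92 in HFLN and 1.62 in HFOB.

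Genes of leptin receptor signalling were described from a list of 15, all of them measured and tested. In each of the 3 comparisons 0 of 15 were called, where 0.195% to 0.366% of all rows tested were. At such shares 0 is the usual count for a short list, and nothing is read from it here or in the lists below. Between HFOB and control 11 were lower and 4 higher, with a median log2 fold of -0.12 (8 lower and 7 higher with the equal-sum scaling), and 13 were lower and 2 higher in HFOB than in HFLN, with a median of -0.04 (14 and 1 with that scaling). Socs3, which encodes a feedback inhibitor of the leptin receptor, had the widest difference: control ovaries held 39.4 FPKM (20.8 to 58.0), HFLN ovaries 31.4 (6.74 to 56.1) and HFOB ovaries 13.6 (6.04 to 21.1). The control and HFOB intervals of Socs3 met between 20.8 and 21.1, which kept it from being called at a log2 fold of -1.47. A second, lower row of Socs3 held 12.4, 18.1 and 5.31 FPKM and was also lowest in HFOB. Cish, another feedback inhibitor of cytokine receptors, stood at 50.04, 36.1 and 32.0 FPKM, with overlapping intervals. Stat3, the transcription factor downstream of the receptor, stood at 41.6, 33.1 and 31.6, and Irs2, an adaptor of insulin and leptin signalling, at 6.02, 5.53 and 6.79. In HFOB, Lep was at its highest group value and Socs3 at its lowest, the latter with overlapping intervals. A link between Lep and Socs3 was not tested.

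Adipoq (chromosome 16, 23146536 to 23157968, plus strand) encodes adiponectin, a product largely of mature fat cells. Adiponectin RNA was at 14.7 FPKM (7.39 to 22.1) in control ovaries, 11.9 (5.52 to 18.2) in HFLN ovaries and 21.5 (11.6 to 31.3) in HFOB ovaries. HFOB was the highest group and HFLN the lowest, and the intervals of all 3 groups overlapped, so no neighbours in that order differ beyond their intervals. The plain ratio of HFOB to HFLN was 1.81 and that of HFOB to control 1.46. Of the rows tested, 1.03% and 1.47% had as high a log2 fold in these comparisons. The FPKM of Lep divided by that of Adipoq was 0.0151 in control, 0.0280 in HFLN and 0.0979 in HFOB. The intervals of Lep were wide, and a common factor in both genes was not tested.

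The adiponectin receptors were among the more abundant RNAs of the ovary. Adipor1 (chromosome 1, 134415378 to 134433351, plus strand), the receptor linked mainly to AMP-activated kinase, had 53.7 FPKM (35.8 to 71.6) in control ovaries, 48.2 (32.2 to 64.2) in HFLN ovaries and 53.5 (35.6 to 71.5) in HFOB ovaries. Adipor2 (chromosome 6, 119353150 to 119417699, minus strand), linked mainly to PPARα, had 44.7 (29.5 to 59.9), 44.5 (29.4 to 59.7) and 40.9 (27.1 to 54.8) in the same order. The groups overlapped over most of their intervals in both genes. Adipor1 exceeded Adipor2 by ratios of 1.20, 1.08 and 1.31 per length, within the intervals, and exceeded Lepr by ratios of 16.2, 14.6 and 15.8.

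Genes around adiponectin action, 17 in the list, had 16 tested members and 0 called in each comparison. In HFOB against control 9 were higher and 7 lower (11 and 5 with the equal-sum scaling), with a median log2 fold of 0.02. Appl2, which encodes an adaptor related to the receptor-binding APPL1, read 63.5, 74.5 and 81.2 FPKM across control, HFLN and HFOB. Prkab2, a subunit of AMP-activated kinase, stood at 13.1, 15.7 and 16.5. Gstk1, reported to aid the assembly of adiponectin multimers, was highest in control, at 46.4 against 32.0 and 33.5. Erp44, which retains adiponectin in the secretory pathway, stood at 34.8, 35.1 and 32.3. The kinase gene Stk11 stood at 76.1, 74.9 and 82.4, with intervals from 0 to 402 FPKM or more, so its row is uninformative. The groups overlapped in each of these genes.

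Markers of white adipocytes, the fat cells that make leptin and adiponectin, are given beside the hormones. The list had 12 genes, 3 of them Lep, Adipoq and Retn, and none was at 0 in any group. Relative to HFLN, 10 of 12 were higher in HFOB, with a median log2 fold of 0.30; relative to control, 7 of 12 were, with a median of 0.21 (10 and 9 of 12 with the equal-sum scaling). Without Lep, Adipoq and Retn, 7 of 9 were higher in HFOB than in HFLN, with a median of 0.19. Relative to control 5 of 9 were, with a median of 0.04 (7 and 7 of 9 with the equal-sum scaling). With that scaling 21.5% of all rows tested were higher in HFOB than in HFLN and 69.1% higher than in control. These 9 markers summed to 349, 319 and 403 FPKM across control, HFLN and HFOB. Without Cfd, whose intervals start at 0, the remaining 8 summed to 246, 233 and 341. The lipid-droplet gene Cidec read 5.90, 5.75 and 10.98 FPKM in that order, the fatty-acid carrier Fabp4 at 77.2, 87.2 and 139, and the carbonic anhydrase Car3 at 63.4, 52.8 and 93.8. These were highest in HFOB like Adipoq, whereas the lipid-droplet coat gene Plin1 stood at 13.02, 10.6 and 12.3 and Pparg, the master regulator of fat cells, at 33.6, 24.8 and 24.6. Lep was the 1 of the 12 called in either comparison of HFOB. Of 7 brown adipocyte markers 4 were tested and 0 called in any comparison. The defining brown-fat gene Ucp1 was near 0, at 0.0152, 0.00759 and 0.00676 FPKM. Others on that list were not: Cox7a1, a mitochondrial subunit gene, read 40.3, 30.7 and 29.2, and Cidea 2.19, 3.38 and 1.36. How far each of these markers is specific to fat cells in whole ovary was not tested. Nor was the part of fat-cell RNA in the values of Lep and Adipoq.

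**Figure D3:**
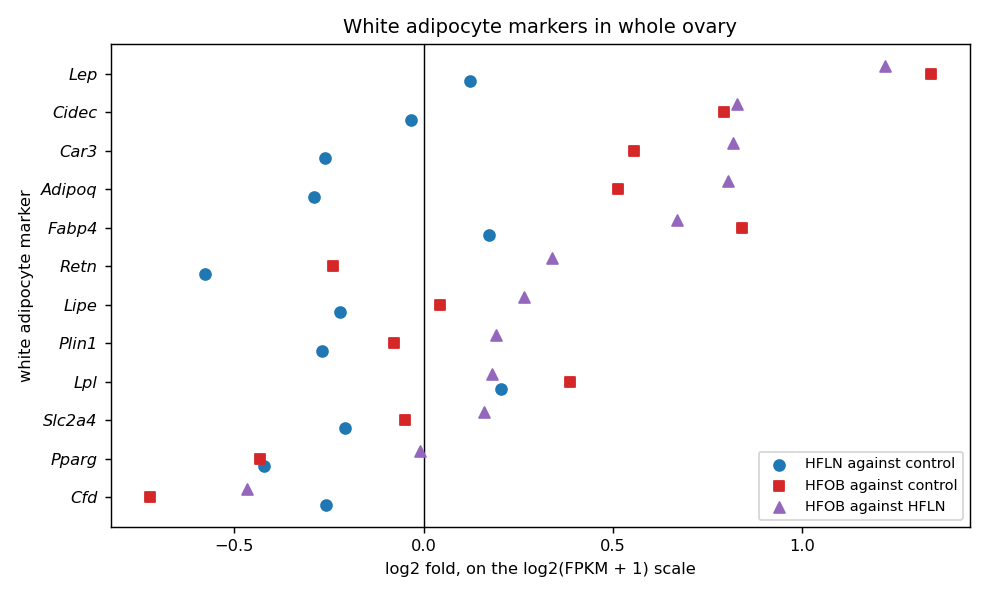
Log2 folds on the log2(FPKM + 1) scale (horizontal axis) of 12 white adipocyte markers in the 3 comparisons, ordered by HFOB against HFLN. In that comparison (triangles) 10 of 12 markers lie above 0, and in HFOB against control (squares) 7 of 12 do, with Lep at 1.34 and Cfd at -0.72.

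The genes with group values nearest to those of Lep were sought among 13058 rows with 1 protein-coding symbol and at least 1 FPKM in 1 or more groups. Nearness was the Euclidean distance between the 3 group values of log2(FPKM + 1), each gene centred on its mean. The 8 nearest were Hoxd11, Sncg, Pcp4, Ttll1, H2ac13, Cidec, Fabp4 and Gpnmb, at distances from 0.12 to 0.44. Sncg, which encodes γ-synuclein, read 5.65 FPKM (1.53 to 9.78), 7.28 (2.32 to 12.2) and 16.9 (7.19 to 26.6) across control, HFLN and HFOB. Cidec and Fabp4, named above as fat-cell genes, were sixth and seventh in that order. Gpnmb, a membrane glycoprotein of macrophages and other cells, stood at 12.3, 17.0 and 26.4 FPKM. Of the 8, H2ac13 in HFOB against HFLN was the 1 case in which a HFOB interval cleared that of another group. For Adipoq the 5 nearest were Car3, Gkn3, H4c17, Gm21119 and Rps2, with Car3 at a distance of 0.03. With 3 group values per gene, many genes lie close by, and nothing is read from the names.

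**Figure D4:**
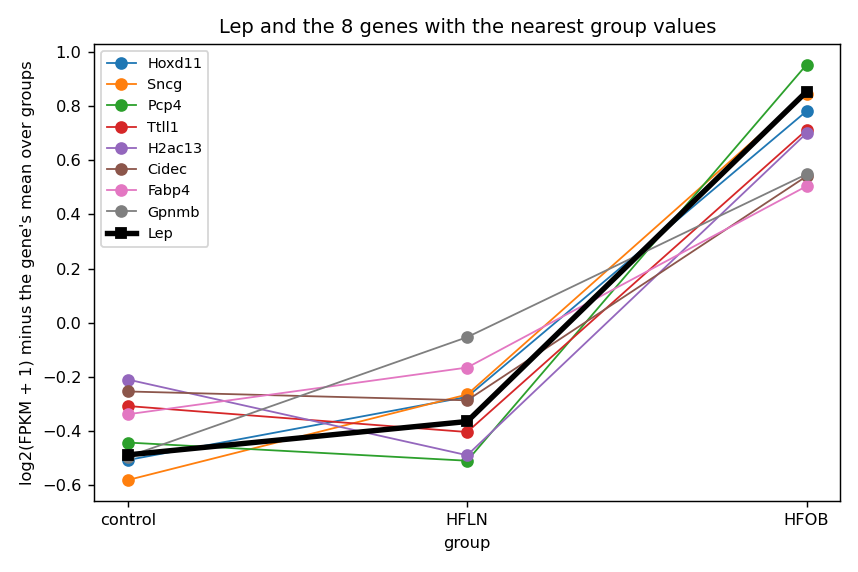
Centred log2(FPKM + 1) (vertical axis) of Lep (thick black line) and the 8 genes with the nearest values in control, HFLN and HFOB. All 9 lines have their highest point in HFOB, as the choice of the genes fixes.

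Retn (chromosome 8, 3655770 to 3659818, plus strand) encodes resistin. Resistin RNA read 19.5 FPKM (7.36 to 31.7) for control, 12.8 (3.91 to 21.6) for HFLN and 16.4 (5.88 to 26.9) for HFOB. Control was highest and HFLN lowest, with intervals that overlapped broadly and extended 62.3% to 69.4% of the value. Its log2 fold of -0.58 in HFLN against control was the lowest of the 9 genes, and 2.86% of all rows tested were as low. Per length, Retn exceeded Adipoq by a ratio of 1.33 in control and 1.07 in HFLN, while Adipoq exceeded Retn by a ratio of 1.31 in HFOB. Within each group the intervals of Retn and Adipoq overlapped.

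Of 7 relatives and reported receptors of resistin 5 were tested, with 0 called in each comparison. Retnla, a resistin-like protein known from macrophages, read 2.76 FPKM (0.211 to 5.32), 2.09 (0.255 to 3.92) and 3.50 (0.736 to 6.27) across control, HFLN and HFOB. Its order, HFOB over control over HFLN, was that of Adipoq, again inside the intervals. Among proposed receptors, Cap1 stood at 94.6, 91.3 and 91.3 FPKM, the matrix proteoglycan Dcn at 220, 214 and 227, Tlr4 at 1.37, 1.58 and 1.68, and Ror1 at 3.24, 3.58 and 3.25. These differed by less than their intervals. Retnlb was listed at 0 in every group.

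Nampt (chromosome 12, 32820335 to 32853369, plus strand) encodes the rate-limiting enzyme of NAD salvage from nicotinamide, also called visfatin. Control ovaries had 15.03 FPKM (9.90 to 20.2), HFLN ovaries 16.6 (10.9 to 22.3) and HFOB ovaries 15.4 (10.1 to 20.7). The ratio of the highest to the lowest group was 1.105, and the intervals extended 34.1% to 34.4% of the value to either side. The non-coding gene Gdap10 lies inside the span of Nampt on the same strand and had its own row, at 0.537, 0.590 and 0.420 FPKM.

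Of 13 genes of NAD synthesis and use 11 were tested, with 0 called in each comparison and a median log2 fold of -0.01 in HFOB against control. There 5 were higher and 6 lower (7 and 4 with the equal-sum scaling). The insulin receptor gene Insr, which stands in the same list and does not act on NAD, read 12.3, 12.6 and 11.7 FPKM and was not called. Nmrk1, the kinase that turns nicotinamide riboside into a NAD precursor, was highest in control: 11.6 FPKM (6.16 to 17.1) against 6.68 (2.97 to 10.4) for HFLN and 5.59 (2.33 to 8.85) for HFOB. Its log2 folds against control were -0.72 and -0.94, and its intervals overlapped. Nnmt, which methylates nicotinamide, stood at 7.64, 5.65 and 6.30, and Nadk, which makes NADP, at 93.8, 84.4 and 84.3. The mitochondrial deacetylase gene Sirt3 stood at 20.3, 19.4 and 22.0 and the enzyme gene Nmnat2 at 0.721, 0.834 and 0.560.

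Rarres2 (chromosome 6, 48569696 to 48572845, minus strand), which encodes chemerin, had the highest level of the 9 genes. Chemerin RNA read 259.7 FPKM (160.1 to 359) for control, 256 (160.0 to 351) for HFLN and 270.1 (167 to 373) for HFOB. The groups overlapped almost wholly, and the highest exceeded the lowest by a ratio of 1.06. From the highest FPKM down, Rarres2 held place 386, 333 and 345 among the rows of the table. Lrrc61 overlaps it on the opposite strand, and whether fragments were counted by strand is not stated. Lrrc61 had its own row, at 9.11, 9.96 and 10.7 FPKM.

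Cmklr1 (chromosome 5, 113612355 to 113650475, minus strand), which encodes the signalling receptor of chemerin, was at 4.13 FPKM (2.00 to 6.27) in control ovaries, 4.33 (2.15 to 6.50) in HFLN ovaries and 4.33 (2.13 to 6.54) in HFOB ovaries. The groups did not differ beyond their intervals. The gene Gm15736 overlaps Cmklr1 on the opposite strand, and its level is not given here. Per length, the hormone exceeded this receptor by ratios of 62.9, 59.1 and 62.3. For leptin the receptor had the higher value in every group, with intervals that overlapped in HFOB.

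Of 14 chemerin receptors and processing enzymes 6 were tested, since the rest stayed below 1 FPKM in every group. None of the 6 was called in any comparison. Ctss, a cysteine protease of phagocytes, read 58.7 FPKM (38.6 to 78.8), 73.4 (47.4 to 99.3) and 86.8 (57.0 to 117) across control, HFLN and HFOB, with overlapping intervals. Plau, the urokinase gene, stood at 62.0, 51.4 and 50.5. The carboxypeptidase genes Cpb2, at 0.431, 0.441 and 0.766, and Cpn1, at 0.564, 0.707 and 0.437, were among those not tested. Macrophage markers, given beside Ctss, summed to 369, 351 and 455 FPKM over 7 genes, of which the shared row of Lyz1 and Lyz2 held 252, 236 and 337 and the shared row of Cd68 and Eif4a1 held 92.7, 91.0 and 92.4. The other 5 summed to 23.7, 24.6 and 25.2. Their part in the values of Ctss was not tested.

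**Figure D5:**
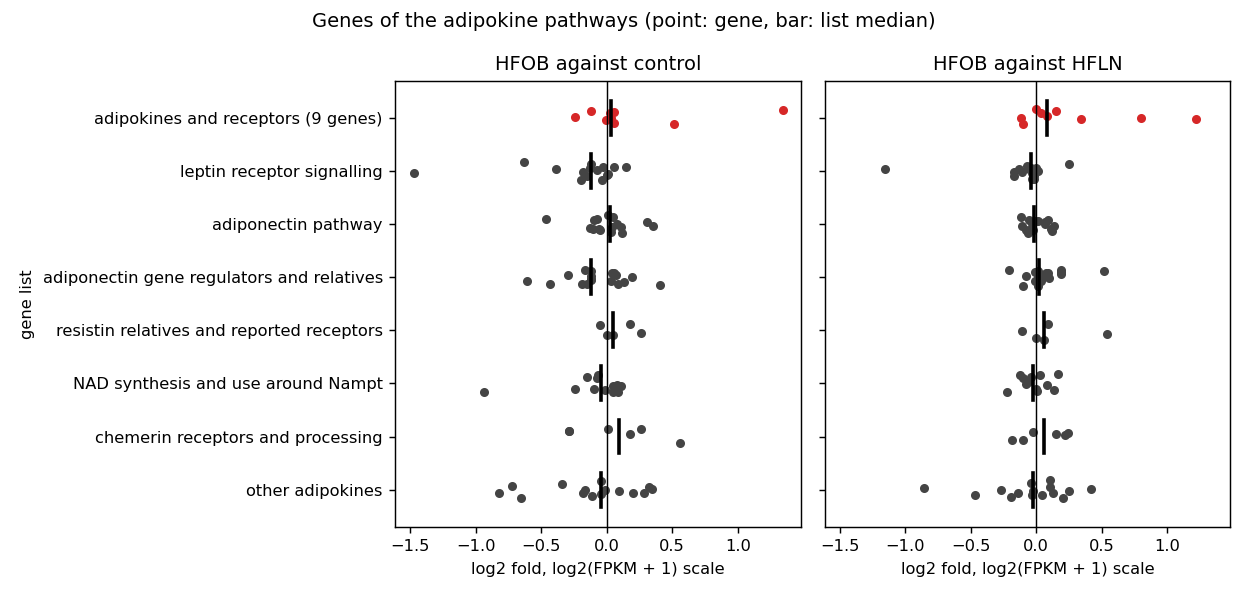
Log2 folds on the log2(FPKM + 1) scale (horizontal axes) of the 9 adipokine genes (red) and of 7 lists of related genes (grey), in HFOB against control and HFOB against HFLN. Points are genes, vertical bars list medians, which lie between -0.12 and 0.09. In HFOB against control the outermost points plotted are Lep at 1.34 and Socs3 at -1.47.

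A last list held other secreted factors of fat tissue and receptors, of which 22 genes are described here and 15 of these were tested. In HFOB against control 5 of the 15 were higher and 10 lower (8 and 7 with the equal-sum scaling), with a median log2 fold of -0.04. In HFOB against HFLN 7 were higher and 8 lower (5 and 10 with that scaling), with a median of -0.02. Apln, the peptide apelin, read 11.02 FPKM (6.56 to 15.5) for control, 8.23 (4.53 to 11.9) for HFLN and 6.65 (3.66 to 9.63) for HFOB, in the opposite order to Lep. Rbp4, the carrier of retinol, read 5.76 FPKM (1.88 to 9.65), 5.44 (1.74 to 9.14) and 7.59 (2.54 to 12.6), in the order of Adipoq. Lcn2, a siderophore-binding lipocalin, was highest in HFLN, at 21.8 FPKM (10.3 to 33.2) against 14.9 (6.67 to 23.2) in control and 11.6 (4.32 to 18.9) in HFOB. The cytokine gene Il6 stood at 1.11, 0.312 and 0.192 FPKM, with a control interval from 0 to 2.41. Cfd, the fat-cell protease adipsin, stood at 103.4, 86.4 and 62.2 FPKM, but its intervals run from 0 to 591 or more, so no order is read from it. In Apln, Rbp4, Lcn2, Il6 and Cfd the intervals of the groups overlapped.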

How the data were processed

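Messenger RNA of whole ovaries was sequenced with a strand-specific kit, per the labels. Tools listed in the submitters' processing notes are TopHat2 2.1.0, Trimmomatic 0.32.3, Cuffdiff 2.2.1.3 and Cufflinks 2.2.1.0, with build mm10. The authors deposited FPKM, 1 value with 2 bounds per group and gene. No source used here gives the confidence level of the bounds, the annotation, the strand setting or the scaling. Depth is unknown, since the table holds neither counts nor transcript lengths.

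RefSeq identifiers in the rows (99.2% matched, GRCm38.p6) gave the symbols. Where lists named a gene with several rows, the row of highest mean FPKM was taken. Log2 folds used a pseudocount of 1 FPKM. The code of the call rule was run on simulated data, with pandas 2.3.3 in Python 3.11.15. That run gives no error rate for the rule in these data. How the rule behaves at levels as low and intervals as wide as those of Lep was not tested. Members, lists and motifs were chosen with earlier results of these data known. Within lists, the 3 genes with the widest log2 folds in HFOB against control and the 3 in HFOB against HFLN were named. The fat-cell marker examples and the tissue markers were chosen after their values were seen. In the list of other adipokines 1 gene is left out of the counts, the median and the figure and is not reported here, so no count of calls is given for that list. Alternatives tried were other pseudocounts, filters, scalings, row choices and interval widths.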

Additional observations from a re-analysis of the deposited data

How the results depend on the processing

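No paired analysis was possible because the table gives 1 combined value per group, and leaving out an animal could not be done for the same reason. Lep was the gene called among the 9 in both comparisons of HFOB under all alternatives but 1. With a minimum of 5 FPKM Lep, Lepr and Cmklr1 were not tested. There 0 of 9 were called in HFOB against control and 0 of 9 in HFOB against HFLN. Smaller pseudocounts, no filter, summed rows and narrower intervals could not have removed the call of Lep. Only the higher minimum and the scalings could, and wider intervals were not tried. In HFLN against control 0 of 9 were called under every alternative. With intervals of 0.5 times the deposited width, the rows called in all became 195 in HFLN against control (48 with the full width), 167 in HFOB against control (62) and 155 in HFOB against HFLN (33), while Lep stayed the 1 gene of the 9; Socs3 was then called in both comparisons of HFOB. Pseudocounts of 0.1 and 0.01 FPKM raised the log2 fold of Lep to 2.77 and 3.18 against control and to 2.35 and 2.63 against HFLN. Of the alternatives, only the scalings could change the sign of a log2 fold of these 9 genes. With the equal-sum scaling 19 of 27 log2 folds kept their sign. With a scaling by median ratios over protein-coding rows 24 of 27 did. The 11 changes concern Lepr, Adipor1, Adipor2, Rarres2 and Cmklr1. Unknown depth limits what can be said of Lep, the lowest of the 9 genes.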

Other observations

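Relatives of adiponectin and of its receptors, with regulators of the adiponectin gene, formed a list of 19 genes, of which 18 were tested and 0 called in any comparison. Cebpb, which encodes a C/EBP factor of early fat-cell differentiation, had the widest differences: 186 FPKM (42.8 to 329) for control, 84.5 (31.9 to 137) for HFLN and 122 (55.9 to 187) for HFOB. Its log2 folds were -1.13 in HFLN against control and -0.61 in HFOB against control, with intervals that overlapped. With intervals of 0.5 times the deposited width it was called in HFLN against control. C1qtnf3, an adiponectin paralogue, stood at 0.812 FPKM (0.195 to 1.43), 1.11 (0.268 to 1.95) and 1.41 (0.448 to 2.37), and Paqr8, a receptor of the family of Adipor1 and Adipor2, at 3.22, 3.47 and 2.87. The median log2 fold of the list was -0.12 in HFOB against control and 0.02 in HFOB against HFLN (-0.03 and -0.06 with FPKM scaled to an equal sum over protein-coding rows).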
